A study of Mus musculus with 2 samples.

Results

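Thy1, Ly6a, Ly6e, Ly6c2, Ly6g, Cd34 and Cd48, 7 surface antigen genes by which blood stem, progenitor and myeloid cells of the mouse are sorted, were followed across cell classes and between 2 single-cell libraries. They were chosen by symbol and are 7 of the 28692 genes counted in both libraries, each with 1 row. The cells were LSK cells (lineage-negative, Sca-1-positive, Kit-positive bone marrow cells, a fraction that holds the blood stem cells) from C57BL/6 mice. Marrow from 5 mice, enriched for stem and progenitor cells, had been infected with a retrovirus. In the control shRNA group the virus targeted no mouse gene, and in the Cxxc5 shRNA group it was directed against Cxxc5. GFP-positive LSK cells were sorted, and both groups were grown alike in medium with 20% fetal bovine serum, 10 ng/ml GM-CSF and 10 ng/ml SCF until day 3. In each group 5 samples were pooled into 1 library, so there are no replicates. The hairpin, the pool and the library cannot be told apart, and every interval given here covers counting error only.

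These genes encode proteins that sit on the cell surface, and most are held there by a glycosylphosphatidylinositol (GPI) anchor. Ly6a is Sca-1, the antigen that gives LSK cells their name, and Thy1 and Cd34 divide the stem cell compartment by how much of them a cell carries. Ly6c2 encodes a form of Ly-6C, found on monocytes and on maturing granulocytes, and Ly6g encodes the antigen by which mouse neutrophils are recognised. Ly6e is a widely expressed relative that interferon can induce. Cd48 belongs to the SLAM group of receptors and is used to part stem cells, which lack it, from progenitors, while Cd34 is a sialomucin of its own family.

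The control library held 2912 cells after filtering, with a median of 17197 UMIs (unique molecular identifiers, each standing for 1 captured transcript), and the Cxxc5 shRNA library 6004 cells with a median of 10599. The libraries shared 26 cell barcodes, which are 0.889% of the control and 0.432% of the Cxxc5 shRNA barcodes. Because depth differed, levels are given as counts per 1000000 UMIs (CPM) with a 95% Poisson interval, and shares of cells were also taken after each cell was thinned to 5000 UMIs. For the targeted gene, Cxxc5, the control gave 9.38 CPM and the Cxxc5 shRNA library 1.16 CPM, a log2 ratio of -3.01 (95% interval -3.39 to -2.65). Its exons overlap those of AC141471.2 on the same strand, so reads of the shared part may be assigned uncertainly. Cells were divided into 7 classes by the summed UMIs of marker genes, none of which is among the 7 antigens. An MHC class II-high class held 64 cells in each library, and a mast cell and basophil gate held 119 control and 205 Cxxc5 shRNA cells. A late granule-high class, defined by Ltf, Camp, Lcn2, Ngp and Mmp8, held 332 and 498 cells, and an S100a8-high class 477 and 812. A monocyte gate held 423 and 618 cells, a protease-high class defined by Mpo, Elane and other granule genes of granulocyte-monocyte progenitors held 1252 and 3294, and 245 and 513 cells lay outside all gates. These names describe the gates and were not checked by any other measure of cell identity.

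The LSK label describes the cells as sorted, and by day 3 few of them held both transcripts of that sort. Ly6a UMIs were found in 231 of 2912 control cells (7.93%) and Kit UMIs in 868 (29.8%). Both were found in 80 control cells (2.75%, exact 95% interval 2.18 to 3.41%) and in 54 of 6004 Cxxc5 shRNA cells (0.899%, 0.676 to 1.17%). Neither was found in 65.0% of control and 75.5% of Cxxc5 shRNA cells. At 5000 UMIs the cells with both numbered 15 of 2797 among control cells (0.536%, 0.300 to 0.883%) and 13 of 5363 in the Cxxc5 shRNA library (0.242%, 0.129 to 0.414%), while 87.1% of either library had neither. The share with Kit was 29.8% in the control and 21.3% in the Cxxc5 shRNA library as sequenced, and 10.4% and 10.8% at 5000 UMIs. Kit, the receptor for SCF, stood at 24.1 and 25.2 CPM in the control and Cxxc5 shRNA libraries.

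Over all cells, 6 of the 7 genes reached 10 CPM in either library, and 3 of these differed by at least 1.2-fold between the libraries. Thy1 was higher in the Cxxc5 shRNA library, and Ly6a and Ly6c2 were lower. Ly6a reached 10 CPM only in the control (10.1 against 7.52 CPM), where it was higher, so its call rests in part on that filter. Of all 6743 genes at that level, 8.51% differed by at least 1.2-fold, 3.8% upward and 4.72% downward, and their median log2 ratio was 0.03. The log2 ratio lay between -0.25 and 0.24 for the central 90% of those genes. Ly6g, below 10 CPM, was also lower in the Cxxc5 shRNA library. The plot of levels by class shows that the classes differed far more than the libraries did.

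**Figure D1:**
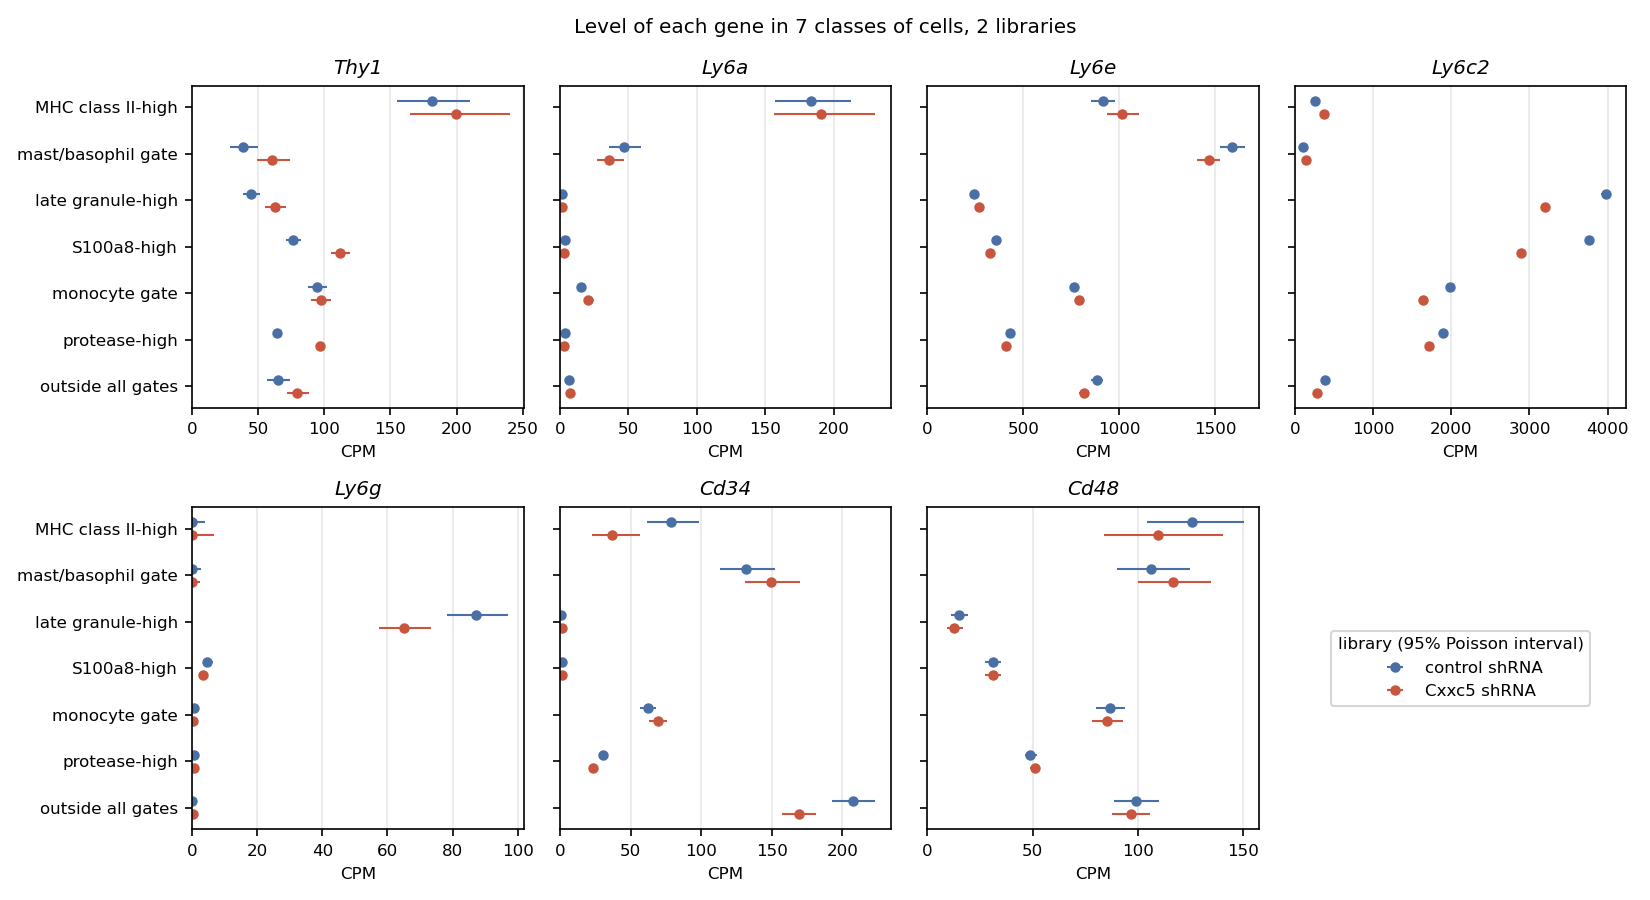
CPM of each gene (horizontal axis, linear and starting at 0, its own scale per gene) in 7 classes of cells (vertical axis). Points are the control shRNA (blue) and Cxxc5 shRNA (red) libraries, 1 library each, and bars are 95% Poisson intervals. Thy1 and Ly6a are highest in the MHC class II-high class, Ly6e in the mast cell and basophil gate, Ly6c2 and Ly6g in the late granule-high class, and Cd34 outside all gates.

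Thy1 was the gene of the group with the most uniform difference between the libraries. It stood at 70.5 CPM (68.2 to 72.9) against 95.3 CPM (92.9 to 97.7) in the Cxxc5 shRNA library, a log2 ratio of 0.43 (0.37 to 0.49). Of the 6743 genes, 51 had a larger ratio. In the protease-high class, which holds the most cells, Thy1 was at 64.0 CPM among control cells and 96.5 CPM among Cxxc5 shRNA cells (log2 ratio 0.59, 0.51 to 0.68). There 3.75% of 2613 genes differed by at least 1.2-fold, and 3 genes had a larger ratio than Thy1. These 3, named after their values were seen, were Lipg at log2 0.72, Spp1 at 0.71 and Cited4 at 0.71.

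The same direction was seen for Thy1 in the S100a8-high class, at 76.4 against 112 CPM (log2 0.55, 0.41 to 0.70), and in the late granule-high class, at 44.3 against 62.7 CPM (0.50, 0.22 to 0.79). The mast cell and basophil gate had 38.3 against 60.2 CPM (0.65, 0.15 to 1.16). Its Thy1 UMIs lay in 26 control and 59 Cxxc5 shRNA cells, so leaving out the 10 richest of each (1.40) took unequal parts. Cells outside all gates had 64.8 against 79.5 CPM (0.30, 0.05 to 0.54). In these 5 classes Thy1 was at least 1.2-fold higher and the interval lay above 0. The monocyte gate, at 94.3 against 97.2 CPM, had a log2 ratio of 0.04 (-0.12 to 0.21), and of -0.16 with cut points 1.5 times higher. Thy1 was highest of all among MHC class II-high cells, 181 (155 to 210) CPM against 200 (165 to 240) CPM, with a log2 ratio of 0.14 (-0.21 to 0.49). In that class the ratio was -0.53 without the 10 cells richest in Thy1 of each library. With the control's class shares applied to the Cxxc5 shRNA levels, the log2 ratio over all cells was 0.45, so the ratio was as large with the class mix held fixed.

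**Figure D2:**
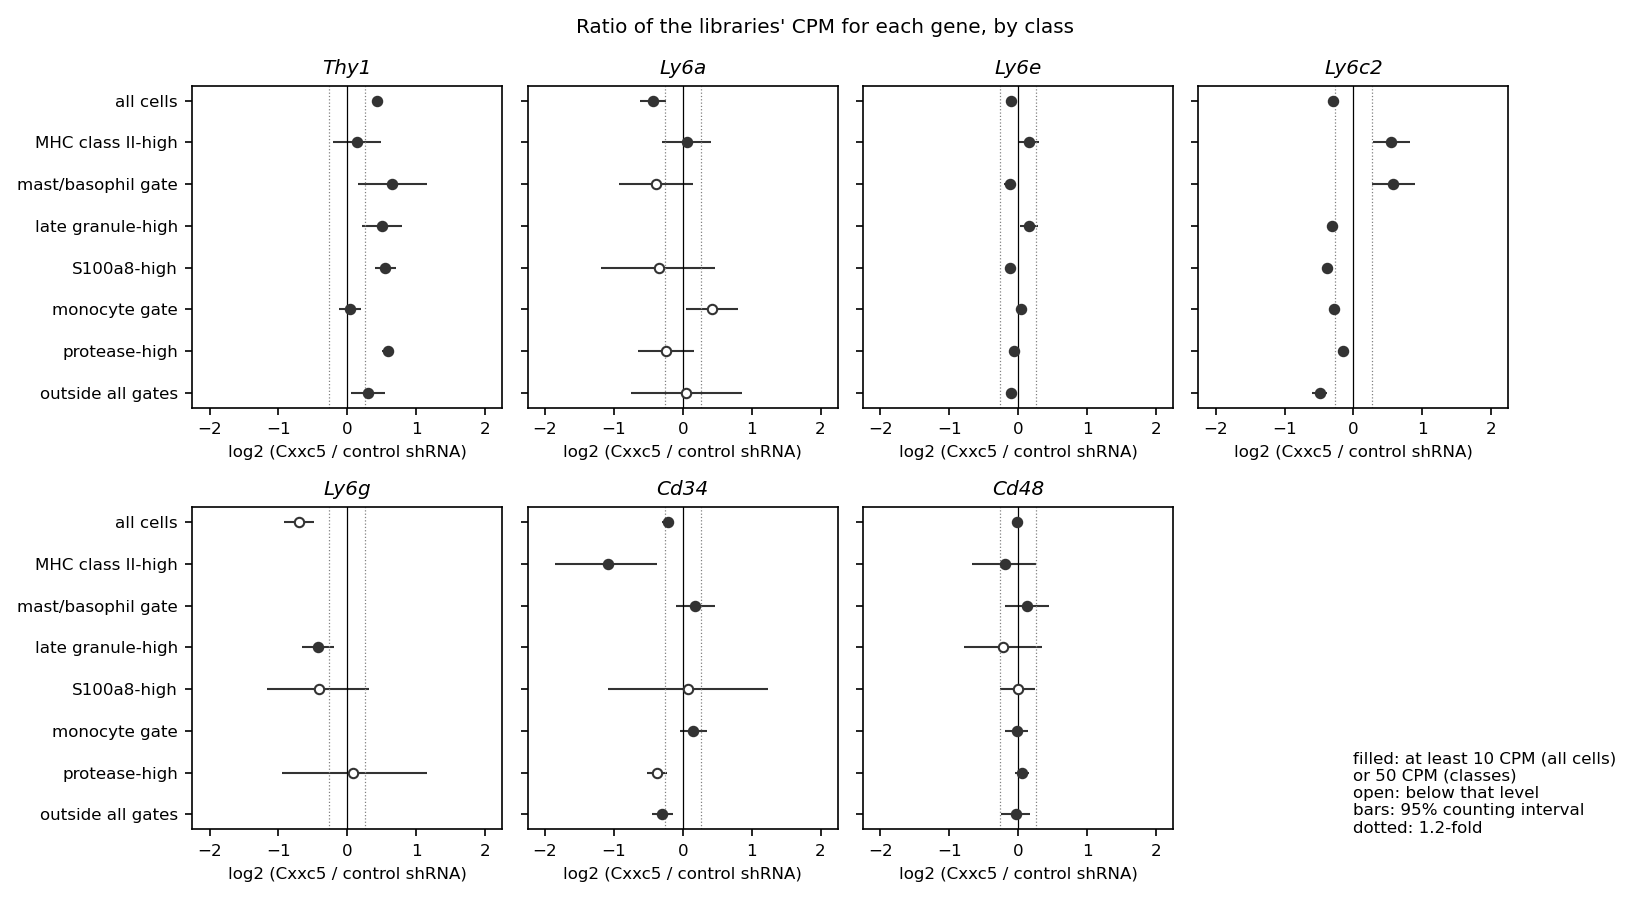
Log2 ratio of CPM, Cxxc5 shRNA over control shRNA library (horizontal axis), for each gene over all cells and in 7 classes (vertical axis), where both libraries had at least 10 UMIs. Bars are 95% counting intervals and dotted lines mark 1.2-fold. Filled points are at least 10 CPM over all cells or 50 CPM in a class, in either library. Thy1 lies to the right of 0 in all 7 classes, between 0.04 and 0.65, and Cd48 lies close to 0 throughout.

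More cells of the Cxxc5 shRNA library had a Thy1 UMI. At 5000 UMIs, Thy1 was detected in 24.0% (22.4 to 25.6%) of 2797 control cells and in 32.0% (30.7 to 33.3%) of 5363 Cxxc5 shRNA cells. Cells with any Thy1 UMI held 1.44 on average in the control and 1.43 in the Cxxc5 shRNA library. In the protease-high class the shares were 24.5% and 33.8%, with means of 1.37 and 1.39 UMIs in cells with any. In the S100a8-high class the means were 1.38 and 1.46, and the share of cells with exactly 2 UMIs was 4.72% and 9.69%. At such low counts a larger share of cells and a higher level in every cell cannot be told apart. Thy1 also marks T cells. Of the listed T, B and NK cell genes, the T cell gene Cd3e had no UMI in either library. Its partners Cd3d and Cd3g were at 0.12 and 0.020 CPM in the control and 0.13 and 0.032 CPM in the Cxxc5 shRNA library. The T cell kinase gene Lck, chosen from the same list after its values were seen, moved with Thy1, from 2.23 CPM (110 UMIs) in the control to 3.61 CPM (227 UMIs), log2 0.69 (0.36 to 1.04). The list of 18 T, B and NK cell genes summed to 17.1 and 18.5 CPM in the control and Cxxc5 shRNA libraries, with 8 of the 18 at 0 in both. Only 1 gene of the list reached 10 CPM, and its log2 ratio was 0.02. The part of these genes in the Thy1 difference was not tested.

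**Figure D3:**
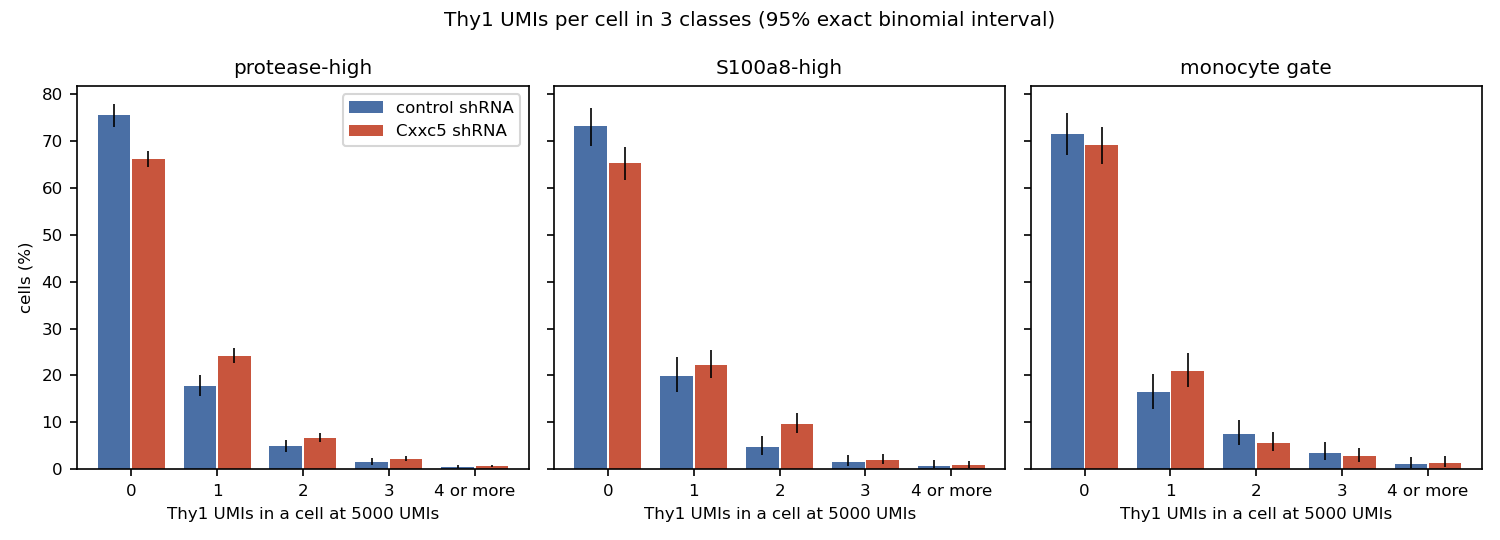
Share of cells (vertical axis, from 0) by number of Thy1 UMIs at a depth of 5000 UMIs (horizontal axis) in the protease-high, S100a8-high and monocyte gates. Bars are the control shRNA (blue) and Cxxc5 shRNA (red) libraries with 95% exact binomial intervals. In the protease-high class 17.7% of control and 24.2% of Cxxc5 shRNA cells have exactly 1 UMI, and the monocyte gate shows shares without any of 71.6% and 69.2%.

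Ly6a, which encodes Sca-1, was rare after the culture. The control gave 10.1 CPM (9.28 to 11.1) and the Cxxc5 shRNA library 7.52 CPM (6.86 to 8.23), a log2 ratio of -0.43 (-0.62 to -0.25). Much of it sat in few cells: the 10 richest control cells held 39.6% of its 500 UMIs, and the 10 richest Cxxc5 shRNA cells 25.4% of 473. Without these cells the log2 ratio was -0.13, below 1.2-fold, and at 5000 UMIs it was -0.81. Its level was highest in the MHC class II-high class, at 183 (157 to 213) CPM and 191 (157 to 231) CPM. The mast cell and basophil gate had 46.8 and 35.8 CPM, but 1 control cell held 45 of its 66 UMIs there, and 10 of 119 control cells had any. The monocyte gate had 15.5 and 20.8 CPM (log2 0.43, 0.05 to 0.81), and 0.15 (-0.42 to 0.73) at 5000 UMIs. In the late granule-high class Ly6a was at 1.26 and 1.25 CPM, with a UMI in 1.51% of cells at a median depth of 11537 UMIs and in 1.0% at 7911. In the MHC class II-high class the shares were 39.1% at 14350 UMIs and 42.2% at 7894. Ly6a ranked above all other classes in the class defined by antigen-presentation genes, not in the cells outside all gates, where it stood at 7.01 and 7.21 CPM.

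The MHC class II-high class made up 2.20% of control and 1.07% of Cxxc5 shRNA cells. With the control's class shares held fixed, the log2 ratio of Ly6a was 0.03, whereas the shift of class shares alone gave -0.41. Within that class the ratio was 0.06 (-0.30 to 0.41), and 0.58 without the 10 richest cells of each library. The share of this Ly6a-rich class and the total Ly6a level were thus both lower in the Cxxc5 shRNA library.

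Ly6c2 and Ly6g are neighbours in the Ly6 cluster of chromosome 15 and share similar sequence around their starts. In GRCm38 (mm10), with the GENCODE M21 annotation, Ly6c2 lies at chr15:75108158-75111970 on the minus strand and Ly6g at chr15:75155240-75159126 on the plus strand. The 250 bases before a RefSeq start of each are shown because all thinned cells with a Ly6g UMI also had one of Ly6c2. The reverse did not hold. Of thinned cells with Ly6c2, 3.62% of 2405 in the control and 1.99% of 4712 in the Cxxc5 shRNA library had Ly6g. Ly6c2 was also found in most cells without Ly6g, 85.5% (84.2 to 86.8%) in the control and 87.6% (86.7 to 88.5%) in the Cxxc5 shRNA library. For cells with Ly6g the intervals began at 95.8% and 96.2%, so the overlap exceeded that high base share in both libraries. Capitals mark the 4 stretches of 12 or more bases that align without a difference. The Ly6c2 stretch is chr15:75111972-75112221 and the Ly6g stretch chr15:75155079-75155328, both written 5′ to 3′ on the gene's strand (RefSeq, GRCm38.p6). The GENCODE start of Ly6g, 75155240, falls within its stretch. By that annotation the last part of the Ly6g stretch, with all capitalised runs but the first, lies inside the gene.
Ly6c2: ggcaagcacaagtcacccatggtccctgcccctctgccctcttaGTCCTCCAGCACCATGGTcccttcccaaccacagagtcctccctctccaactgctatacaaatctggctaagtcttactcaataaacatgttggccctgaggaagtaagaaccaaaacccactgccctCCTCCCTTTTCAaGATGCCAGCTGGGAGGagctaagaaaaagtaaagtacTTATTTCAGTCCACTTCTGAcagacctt
Ly6g: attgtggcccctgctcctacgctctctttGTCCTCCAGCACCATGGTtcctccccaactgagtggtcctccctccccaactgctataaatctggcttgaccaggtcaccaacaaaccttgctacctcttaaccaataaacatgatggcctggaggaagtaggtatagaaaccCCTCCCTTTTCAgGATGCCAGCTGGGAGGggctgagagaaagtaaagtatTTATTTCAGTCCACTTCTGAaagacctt
Of 275 aligned columns, 191 (69.5%) were identical, and the longest run without a difference was 20 bases. Windows of 300 bases that take in the 50 bases after the start aligned with 72.9% identity for these starts. RefSeq gives a second start to each gene, and the other pairs of starts gave 65.4%, 49.2% and 39.3%. Pairs of different genes that included Cd34 or Cd48 had between 44.9% and 52.8%, so 2 of the 4 pairs of Ly6c2 and Ly6g starts were not above that range. The letters AGAGGAAGT, a form of the ETS motif searched on both strands and chosen after these sequences had been read, occurred 26 to 34 bases after these starts in both genes. Counted from the other Ly6c2 start the match lies at -8 to 0, and the window of the other Ly6g start does not hold it. They occurred in 1.0% of 32851 promoter windows of that length and not in those of Cd34 or Cd48. The RUNX motif TGTGGT, found in 16.8% of windows, occurred in Ly6c2 and Cd48. The TATA box letters TATAAA, found in 13.6%, occurred among these only in Ly6g. The GATA motif letters AGATAA, found in 11.2% of windows, did not occur in those of these 4 genes. Neither did the E-box letters CACGTG, found in 7.15%.

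Ly6c2, a Ly-6C gene, was highest in the granule-forming classes. The late granule-high class had 3979 CPM (3917 to 4041) among control cells and 3203 CPM (3147 to 3258) among Cxxc5 shRNA cells, and the S100a8-high class 3758 (3716 to 3799) and 2888 (2852 to 2924). The monocyte gate had 1987 and 1641 CPM, and the protease-high class 1892 and 1709. All 332 control and 498 Cxxc5 shRNA cells of the late granule-high class had a Ly6c2 UMI. Over all cells Ly6c2 was at 2204 and 1799 CPM, a log2 ratio of -0.29 (-0.31 to -0.28), which fell below 1.2-fold at 5000 UMIs (-0.23) and with the control's class shares (-0.25). The ratio was -0.31 in the late granule-high class, -0.38 in the S100a8-high class, -0.28 in the monocyte gate and -0.15 in the protease-high class, with intervals below 0 in each.

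Outside these 4 classes Ly6c2 did not hold a direction under every setting. Cells outside all gates had 389 and 277 CPM (log2 -0.49, -0.60 to -0.38), and -0.48 (-0.68 to -0.29) at 5000 UMIs. The ratio was 0.03 without the 10 richest cells of each library. Ly6c2 UMIs there lay in 133 control and 219 Cxxc5 shRNA cells, so leaving out 10 of each took unequal parts. MHC class II-high cells had 253 and 371 CPM (0.55, 0.28 to 0.82), and -0.11 at 5000 UMIs, where 58 and 47 of its cells were left. The neutrophil gene S100a8 stood at 302 CPM among the control cells of that class and 3429 CPM among the Cxxc5 shRNA cells, and the list of 10 neutrophil genes summed to 540 and 6373 CPM. Without the 2 Cxxc5 shRNA cells of that class that passed the S100a8-high cut, an alternative added after seeing this, the Ly6c2 ratio was 0.37. The part of neutrophil transcripts in this ratio was otherwise not tested. The mast cell and basophil gate had 97.1 and 145 CPM (0.57, 0.26 to 0.89). Its ratio was 0.75 (0.19 to 1.33) at 5000 UMIs and -0.19 with cut points 1.5 times higher. Ly6c2 UMIs lay in 26.1% and 21.0% of its cells at median depths of 10396 and 7188 UMIs. At 5000 UMIs the shares were 16.5% (10.1 to 24.8%) and 22.0% (15.5 to 29.7%). In the same gate Elane, a gene of granulocyte progenitors, was at 508 and 609 CPM, and S100a8 was at 788 and 287 CPM. The list of 10 neutrophil genes summed to 1623 and 458 CPM there. The 8 granulocyte-monocyte progenitor genes counted summed to 3943 and 4619 CPM. Free RNA or mixed droplets there cannot be told apart from expression, and their part was not tested.

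Ly6g was found in few cells, and most of its UMIs lay in the late granule-high class, with 347 of 402 in the control and 260 of 315 in the Cxxc5 shRNA library. In that class it was at 87.3 (78.4 to 97.0) CPM and 65.0 (57.3 to 73.4) CPM, a log2 ratio of -0.43 (-0.66 to -0.19). A Ly6g UMI was found in 39.5% of control and 25.7% of Cxxc5 shRNA cells of the class, and in 24.3% and 18.3% at 5000 UMIs. The S100a8-high class had 4.53 and 3.39 CPM. The MHC class II-high class (0 of 64 cells in each library, which allows a share of cells with a UMI of up to 4.69%, taken as 3 counts) and the mast cell and basophil gate had no Ly6g UMI. Over all cells Ly6g was at 8.16 (7.38 to 9.0) and 5.01 (4.47 to 5.60) CPM, a log2 ratio of -0.70 (-0.92 to -0.49), -1.14 at 5000 UMIs, and -0.40 with the control's class shares. The late granule-high class was 11.4% of control and 8.29% of Cxxc5 shRNA cells.

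Read against all genes of at least 50 CPM in either library in the same class, the counts were as follows. This rule lets a gene pass through 1 library alone. Thy1 did so in the late granule-high class and in the mast cell and basophil gate, through the Cxxc5 shRNA library, where it was higher. Cd34 did so in the MHC class II-high class, through the control, where it was higher. These 2 genes' calls there rest in part on the filter. In the late granule-high class 3 of 4 of these antigens differed by at least 1.2-fold, Thy1 upward and Ly6c2 and Ly6g downward, where 27% of 2050 genes did (20% upward and 7.07% downward). In the S100a8-high class 2 of 3 did so, Thy1 upward and Ly6c2 downward, against 11.1% of genes (5.69% and 5.4%). In the monocyte gate 1 of 5 did so, Ly6c2 downward (-0.20 and below 1.2-fold at 5000 UMIs), against 8.09% (2.71% and 5.38%). In the protease-high class Thy1 alone of 4 did so, against 3.75% (1.34% upward and 2.41% downward). Outside all gates 3 of 5 did so, Thy1 upward and Ly6c2 and Cd34 downward, against 11.4% (5.96% and 5.49%), and Cd34 fell below 1.2-fold at 5000 UMIs. The 2 smallest classes had the widest background. Of MHC class II-high genes 35.8% differed that much (17.5% and 18.3%), beside 2 of 6 antigens, Ly6c2 upward and Cd34 downward. In the mast cell and basophil gate 28.3% did (16.5% and 11.8%), beside 2 of 5, Thy1 and Ly6c2, both upward.

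Ly6e, the broadly expressed relative, was found in all classes and differed little between the libraries. It lies at chr15:74955051-74959905 on the plus strand and had a level of 525 CPM (519 to 532) in the control library against 491 CPM (485 to 496), a log2 ratio of -0.10. By class its level was 1589 and 1466 CPM in the mast cell and basophil gate, 913 and 1017 in the MHC class II-high class, 882 and 818 outside all gates, and 764 and 789 in the monocyte gate. The protease-high class had 431 and 412 CPM, the S100a8-high class 356 and 328, and the late granule-high class the lowest, 242 and 270. The MHC class II-high class and the cells outside all gates had overlapping intervals in the control. In no class was the difference between the libraries 1.2-fold. Across the 14 values of 7 classes in 2 libraries, the order of Ly6e ran against that of Ly6c2 (Pearson r of log2 CPM -0.91), given as a description, since classes of 1 library share that library.

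Cd34, the sialomucin of progenitors, was highest in cells outside all gates. It lies at chr1:194938819-194961279 on the plus strand and overlaps exons of the antisense gene Gm16897, from which its reads cannot be told apart where strand was not used in counting. Cells outside all gates had 208 CPM (193 to 223) among control and 169 CPM (158 to 181) among Cxxc5 shRNA cells, and the mast cell and basophil gate 132 (114 to 152) and 150 (131 to 170). The monocyte gate had 62.2 and 69.3 CPM and the protease-high class 30.2 and 23.3. The S100a8-high class, at 1.67 and 1.75 CPM, and the late granule-high class, with 2 and 5 UMIs in all, were close to empty of it. A Cd34 UMI was found in 0.602% and 0.803% of late granule-high cells, against 75.1% and 65.5% of cells outside all gates, at median depths of 12139 and 9219 UMIs.

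Over all cells Cd34 was at 43.8 and 37.7 CPM, a log2 ratio of -0.22 (-0.30 to -0.13), below 1.2-fold. It was lower in the Cxxc5 shRNA library outside all gates (-0.30, -0.44 to -0.15) and in the protease-high class (-0.37, -0.52 to -0.23). At 5000 UMIs both fell below 1.2-fold with intervals that held 0, at -0.23 (-0.46 to 0.01) and -0.24 (-0.50 to 0.03). Among MHC class II-high cells it was at 78.5 and 37.1 CPM (-1.08, -1.85 to -0.37), from 75 and 21 UMIs. These lay in 31 control and 12 Cxxc5 shRNA cells. Leaving out the 10 richest cells of each library (-3.19) took most of the latter, so that value is no check of the ratio. In the monocyte gate the ratio was 0.16 (-0.04 to 0.35).

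Cd48, the SLAM-group receptor, was the gene with the least difference between the libraries. It lies at chr1:171682009-171705258 on the plus strand and was at 55.2 (53.2 to 57.4) and 54.7 (52.9 to 56.6) CPM, a log2 ratio of -0.01 (-0.09 to 0.06). In the order of classes, the MHC class II-high class (126 and 110 CPM), the mast cell and basophil gate (106 and 117) and the cells outside all gates (99.0 and 96.5) did not differ from their neighbours beyond counting error. The monocyte gate had 86.7 and 85.4 CPM, the protease-high class 48.9 and 50.9, the S100a8-high class 31.1 and 31.0, and the late granule-high class 14.8 and 12.7. As sequenced, the interval of the ratio held 0 in all 7 classes. At 5000 UMIs the mast cell and basophil gate was the exception, with 82.6 and 133 CPM (log2 0.69, 0.16 to 1.24). The share of cells with a Cd48 UMI was 48.2% and 38.3% as sequenced and 22.0% and 22.3% at 5000 UMIs, so the first pair moved with depth.

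Detection of Ly6c2 and Cd34 parted the cells. At 5000 UMIs, Cd34 was found in 8.81% (7.71 to 10.0%) of 2405 control cells with Ly6c2 and in 54.3% of the 392 without it. In the Cxxc5 shRNA library it was found in 8.55% (7.77 to 9.39%) of 4712 cells with Ly6c2 and in 50.1% of the 651 without. The split was also present inside classes. In the monocyte gate, Cd34 was found in 20.0% (16.0 to 24.5%) of control cells with Ly6c2 and in 61.9% (45.6 to 76.4%) of those without. The Cxxc5 shRNA library gave 18.7% (15.3 to 22.6%) and 66.2% (53.7 to 77.2%). In the protease-high class the shares were 8.51% and 48.6% in the control and 8.73% and 32.5% in the Cxxc5 shRNA library. Outside all gates they were 32.9% and 63.8%, and 30.4% and 62.7%. The mast cell and basophil gate did not show it, with 44.4% and 52.7% in the control and 54.8% and 43.6% in the Cxxc5 shRNA library.

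Thy1 went with Ly6c2 and against Cd34 in the monocyte gate. There Thy1 was found in 30.6% (25.8 to 35.6%) of control cells with Ly6c2 and in 9.52% (2.66 to 22.6%) of those without. In the Cxxc5 shRNA library the shares were 33.8% (29.5 to 38.3%) and 10.3% (4.24 to 20.1%). By Cd34, Thy1 was found in 14.3% of control cells with it and 32.9% of those without, and in 15.9% and 35.7% of Cxxc5 shRNA cells. The monocyte gate thus held Ly6c2-positive cells with more Thy1 and Cd34-positive cells with less in both libraries. Over all cells, 258 control and 537 Cxxc5 shRNA cells had a marker sum within 1.5-fold of this gate's cut point. Their part in the split was not tested. In the protease-high class the Thy1 shares of cells with and without Ly6c2 had overlapping intervals, at 24.7% and 20.0% in the control and 34.1% and 28.0% in the Cxxc5 shRNA library.

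**Figure D4:**
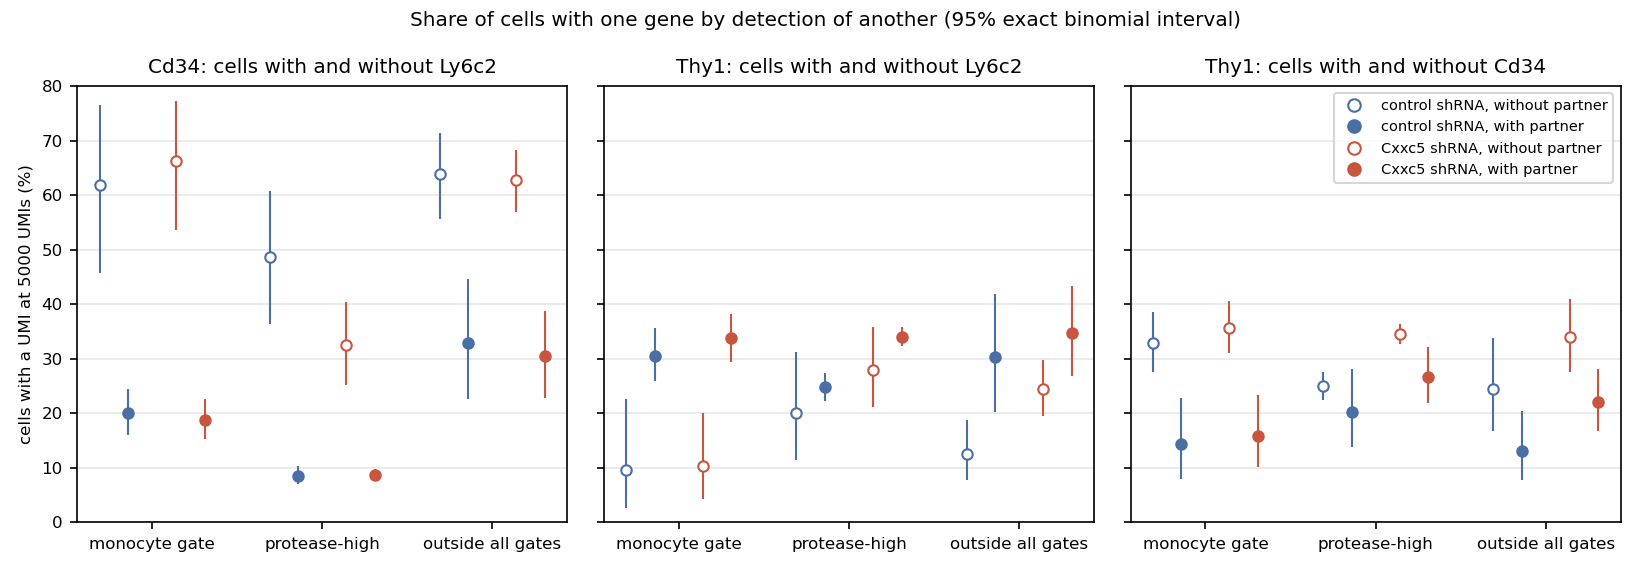
Share of cells with a UMI of one gene (vertical axis, percent at 5000 UMIs) among cells with (filled) and without (open) a UMI of a partner gene, in the monocyte gate, the protease-high class and outside all gates. Colours are the control shRNA (blue) and Cxxc5 shRNA (red) libraries and bars are 95% exact binomial intervals. The Cd34 share is lower in cells with Ly6c2 than in cells without in all 3 classes and both libraries, and Thy1 in the monocyte gate is found in 30.6% and 33.8% of cells with Ly6c2 against 9.52% and 10.3% of cells without.

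All 87 control cells and all 94 Cxxc5 shRNA cells with a Ly6g UMI at 5000 UMIs also had one of Ly6c2, which was found in 85.5% and 87.6% of the cells without Ly6g. Ly6g and Cd34 were found together in 1 cell of each library. Cd34 was found in 34.1% (24.2 to 45.2%) of 85 control cells with Ly6a and 14.6% of those without, and in 26.2% (18.8 to 34.8%) of 126 Cxxc5 shRNA cells against 13.3%. Cd48 was found in 31.1% of control cells with Cd34 against 20.3% without, and in 31.4% against 20.8% in the Cxxc5 shRNA library.

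Cells with at least 2 UMIs of 9 stem cell transcripts (Hlf, Mecom, Meis1, Mllt3, Procr, Flt3, Adgrl4, Gcnt2 and Hoxa9) at 5000 UMIs numbered 48 in the control and 104 in the Cxxc5 shRNA library. Cd34 was found in 27.1% (15.3 to 41.8%) and 38.5% (29.1 to 48.5%) of them, with 15% (13.7 to 16.4%) and 13.1% (12.2 to 14%) in other cells. Ly6c2 was found in 56.3% (41.2 to 70.5%) and 67.3% (57.4 to 76.2%), with 86.5% and 88.3% in other cells. Thy1 was found in 12.5% (4.73 to 25.2%) of the control cells of this set and 24.2% of others, and in 26% (17.9 to 35.5%) and 32.1% in the Cxxc5 shRNA library. Ly6a was found in 4 and 3 of these cells, 8.33% (2.32 to 20.0%) and 2.88% (0.599 to 8.20%), with intervals that include the 2.95% and 2.34% of other cells. A difference in Ly6a between these cells and the rest was not detectable at this depth.

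The counts also differed in how unevenly cells held them. At 5000 UMIs the variance of UMIs per cell was 9.18 times the mean for Ly6a in the control and 4.02 times in the Cxxc5 shRNA library. It was 7.84 and 5.85 times for Ly6c2, where genes of like mean had a median of 1.91 and 1.64 times, and 2.87 and 2.23 times for Ly6e, where they had 1.25 and 1.17 times. For Ly6g it was 3.73 and 3.01 times, for Cd34 1.91 and 1.79 times, for Thy1 1.52 and 1.39 times and for Cd48 1.14 and 1.16 times. The median of genes of like mean was between 1.01 and 1.05 times for these 4 and for Ly6a.

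Most genes of the Ly6 cluster were below 10 CPM. Between Ly6d and Ly6h, chr15:74762056-75567255, the annotation holds 18 protein-coding genes, of which 7 had no UMI in either library. The 3 that reached 10 CPM were Ly6e, Ly6c2 and, in the control only, Ly6a. Ly6a lies at chr15:74994877-74998031 on the minus strand. Ly6c1, the close copy of Ly6c2, was at 2.68 and 2.40 CPM. Of 100-base windows in the last 500 transcript bases of Ly6c2, 16.6% also occur in Ly6c1, so reads of the pair may be split uncertainly, while no such window of the other 6 genes occurs elsewhere. Of 50-base windows, 34.6% of those of Ly6c2, 8.13% of those of Ly6a and 0.297% of those of Ly6g occur in another gene, and none of those of the other 4. Ly6i was at 0.852 and 0.286 CPM, and Ly6f had 17 UMIs in the control and 0 in the Cxxc5 shRNA library. Thy1, which belongs to no Ly6 cluster, lies at chr9:44043384-44048579 on the plus strand.

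**Figure D5:**
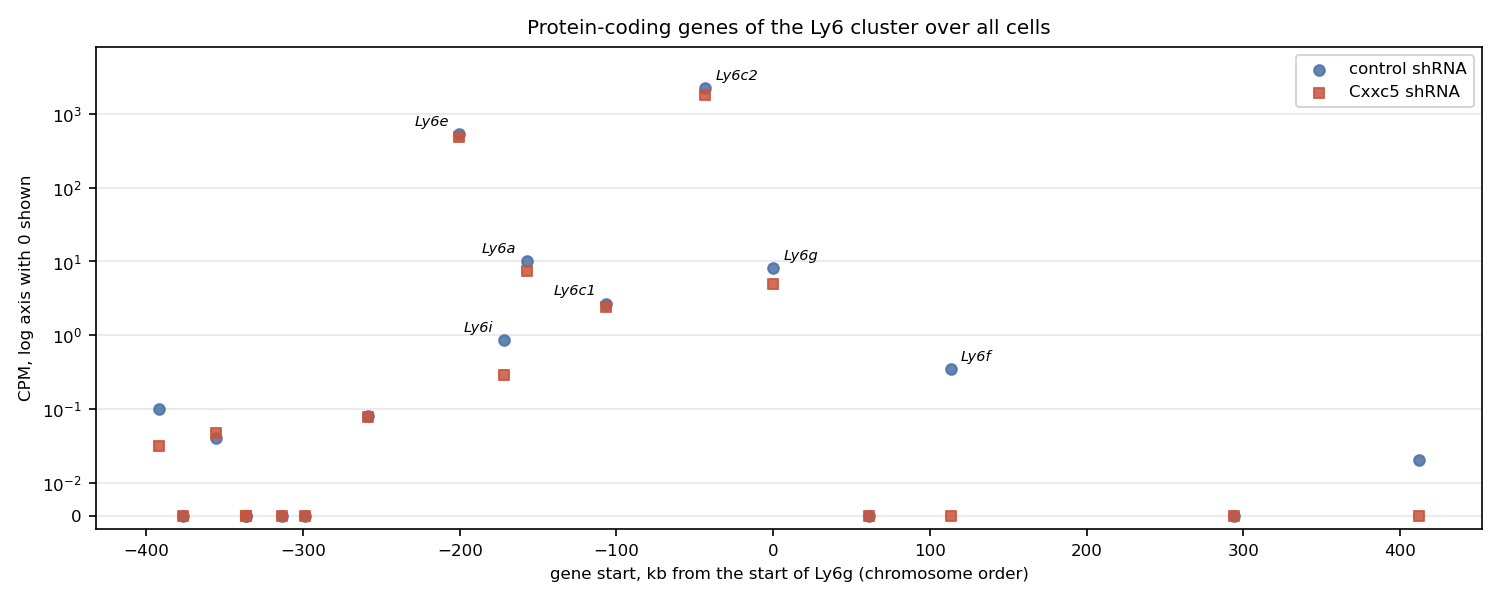
CPM over all cells (vertical axis, logarithmic with 0 shown at the foot) of the 18 protein-coding genes of the Ly6 cluster by distance of the gene's start from that of Ly6g in kb (horizontal axis). Circles are the control shRNA and squares the Cxxc5 shRNA library. Ly6e (525 and 491 CPM) and Ly6c2 (2204 and 1799 CPM) stand out, and 7 genes lie at 0 in both libraries.

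Related genes were counted by the same 1.2-fold rule, which 8.51% of all genes of at least 10 CPM in either library met (3.8% upward and 4.72% downward). Some genes named below, such as Csf1r and Pign, reached 10 CPM only in the library where they were higher. The share was 7.09% of genes of at least 20 CPM and 33.5% of all genes with a UMI in each library. Of 37 other LY6/uPAR domain genes, 33 were counted in the data, 15 had no UMI in either library and 2 reached 10 CPM. Of these, Plaur, the urokinase receptor, was lower in the Cxxc5 shRNA library (24.3 against 17.3 CPM, log2 -0.49), and Cd177, a neutrophil antigen, was at 32.6 and 30.3 CPM. Among the SLAM receptors and the CD2 group, Cd84 alone reached 10 CPM and was lower (17.1 against 13.8 CPM, log2 -0.32). The CD34 relatives Podxl and Podxl2 were below 10 CPM.

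Of 25 other stem and progenitor surface antigens counted, 16 reached 10 CPM, none was 1.2-fold higher and 5 were lower, with a median log2 ratio of -0.09. The 5 were the tetraspanin Cd9 (69.5 against 53.3 CPM), the Fc receptor Fcgr3 (129 against 91.6), the siglec Cd33 (14.1 against 8.05), the M-CSF receptor Csf1r (10.7 against 5.36) and Csf2rb, the shared beta chain of the GM-CSF receptor (84.6 against 69.7). The list of 14 monocyte and macrophage markers, which itself includes Csf1r, moved with these. It summed to 248 CPM among control and 175 CPM among Cxxc5 shRNA cells, and its part in them was not tested. Of 17 tested genes for making and remodelling the GPI anchor, 2 were higher, Pigm (13.2 against 16.5 CPM) and Pign (8.77 against 11.6), none was lower, and the median was 0.11. Of 6 tested other GPI-anchored leukocyte proteins, Cd52 (186 against 113 CPM, log2 -0.72) and Plaur were lower, none was higher, and the median was -0.16. Of 17 tested interferon-induced genes, Gbp7 was higher (9.78 against 13.9 CPM), Ifi27 and Sp100 were lower, and the median was -0.09. Ifitm1, Ifitm3 and Ifitm2, the most abundant of that list, had log2 ratios of -0.14, 0.11 and -0.10. The lists' medians stand beside 0.03 for all genes tested.

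By likeness of pattern over the 14 class and library values, given as Pearson r of log2(CPM + 5) among 3417 genes, each antigen had close followers. Nearest to Ly6g were Ceacam10 (0.99), Stfa3 (0.97) and Chil1 (0.97), and nearest to Ly6c2 were Mgst2 (0.98), Fcor (0.98) and Hp (0.98). Ly6a was followed by Csf2rb (0.99), Mfge8 (0.98) and Rnase6 (0.98), and Ly6e by Lat2 (0.99), H2-T22 (0.99) and Xist (0.98). Cd34 was followed by Zfp36l2, Ankrd11 and Bcl2 (each 0.97), and Cd48 by the ribosomal protein genes Rps27 and Rpl23 (each 0.98). Thy1 had fewer like it, with Cltb at 0.96, Txndc17 at 0.92 and Smdt1 at 0.88.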

How the data were processed

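The deposited values were UMI counts per gene and cell barcode, 1 matrix per library, which the authors made with Cell Ranger 2.1.1 against mm10, per the submitters' processing notes. The chemistry was the 10x 3' kit with a 16-base cell barcode, per the labels' protocols. How the authors chose cells, and whether doublets had been removed, is not given in the sources used here. Cells with at least 500 genes and at most 10% mitochondrial UMIs were kept, 2912 of 2925 and 6004 of 6015, and all that were removed exceeded the mitochondrial limit. The 7 antigens and the gene lists were chosen with earlier results of these data known.

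Each cell was placed in the first gate it passed, in the order MHC class II-high (at least 10 UMIs per 10000), mast cell and basophil (5), late granule-high (100), S100a8-high (100), monocyte (5) and protease-high (100). The markers came from a fixed list, and the cut points were set after the distributions of marker sums had been seen. Ratios have intervals from the split of UMIs between the libraries, shares have Clopper-Pearson intervals, levels have Poisson intervals, all at 95%, and no test was made. A difference of 1.2-fold was counted, among genes of at least 10 CPM over all cells or 50 CPM in a class. Either library could reach that level, so a gene could pass through 1 library alone. For shares, cells were thinned at random to 5000 UMIs, which left out 115 control and 641 Cxxc5 shRNA cells. No doublet was removed, and an alternative left out the 68 and 288 cells with the highest share of simulated doublets among their neighbours. Clusters (Leiden, resolution 1, 2000 variable genes, scanpy 1.11.5) were made without the antigens, with settings chosen after 3 tries. Named genes were the antigens, Kit, Cxxc5, list members of at least 10 CPM, and for each antigen the 3 genes most alike in pattern, of which 1 is not reported here. A count of 9 stem cell transcripts was taken in thinned cells. Promoters, matched by symbol for 4 of the 7 antigens, were RefSeq sequences (Thy1, Ly6a and Ly6e had no entry). Itgam, with more than 1 row, was left out. The interval arithmetic was tested on simulated data, and numpy 2.4.6 and scipy 1.17.1 were used.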

Additional observations from a re-analysis of the deposited data

Results flagged for a closer look

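Ly6c2 pointed in opposite directions in different classes at 1.2-fold or more. The log2 ratio of the Cxxc5 shRNA to the control library was 0.55 in the MHC class II-high class and 0.57 in the mast cell and basophil gate. It was -0.31 in the late granule-high class, -0.38 in the S100a8-high class, -0.28 in the monocyte gate and -0.49 outside all gates. The first of these was -0.11 at 5000 UMIs and the second -0.19 with cut points 1.5 times higher. Outside all gates the ratio was 0.33 by clusters and 0.03 without the 10 richest cells of each library. At 5000 UMIs it was -0.48 there and 0.75 in the mast cell and basophil gate. With 1 library per group the difference between classes was not tested. Groups of 1 library allow no search for samples that stand apart.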

How the results depend on the processing

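No paired analysis was possible because each group is 1 library. Of 6 antigens tested over all cells (Ly6a by its control level alone), 3 differed by at least 1.2-fold, where 8.51% of all genes tested did. With the control's class shares held fixed, 1 (Thy1) did, and Ly6a turned to 0.030. The other 6 alternatives gave 2 or 3. Thy1 kept its direction under all 7 of them, between 0.40 and 0.46. Within classes 14 of 32 pairs of antigen and class differed that much, some of them pairs that reached 50 CPM in 1 library only. Of all genes, between 3.75% (protease-high) and 35.8% (MHC class II-high) differed that much, by class. Alternatives gave 8 of 21 to 16 of 32, and counts over fewer pairs cannot be set directly against 14 of 32. Clusters gave no value for the MHC class II-high class and the mast cell and basophil gate, where they held under 50 cells, and thinning gave none for the first in this count. Ly6c2 turned to -0.19 in the mast cell and basophil gate with cut points 1.5 times higher. Outside all gates it turned to 0.10 with cut points 1.5 times lower, 0.33 by clusters and 0.030 without the 10 richest cells; the cause was not tested.

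The share of cells with Cd34 among those with Ly6c2, minus that among those without, was -45.5 percentage points in the control and -41.5 in the Cxxc5 shRNA library. It was -31.4 and -28.9 at 3000 UMIs and -21.6 and -18.3 when 2 UMIs were asked for, and -48.3 in the Cxxc5 shRNA library without thinning, so its size moves with depth and its sign did not. Counting every list gene with a UMI in each library, where 33.5% of 14626 genes differed by 1.2-fold, gave 7 of 13 other LY6/uPAR domain genes, 5 of 9 SLAM receptors, 13 of 25 other progenitor antigens, 6 of 29 for GPI anchor synthesis, 6 of 13 other GPI-anchored proteins and 21 of 45 interferon-induced genes. At 20 CPM, where 7.09% of genes did, the counts were 3 of 12 other progenitor antigens, 0 of 11 for GPI anchor synthesis (medians 0.11 and 0.10 at 10 and 20 CPM) and 1 of 9 interferon-induced genes.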

Other observations

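Kit, the SCF receptor, had an order of classes of its own. In the mast cell and basophil gate it stood at 36.9 CPM among control and 46.1 CPM among Cxxc5 shRNA cells, with 30.9 and 30.2 CPM in the protease-high class and 28.6 and 22.1 CPM outside all gates. The monocyte gate had 17.3 and 19.2 CPM, the S100a8-high class 16.4 and 13.9, and the late granule-high class 7.80 and 9.75. In the MHC class II-high class, where Ly6a was highest, 4 and 5 Kit UMIs were counted in all. In each class the interval of the Kit ratio between the libraries held 0.

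Cd52, another small GPI-anchored antigen, was chosen for its values by class after they had been seen. It was lower in the Cxxc5 shRNA library in all 7 classes, by at least 1.2-fold in 6. The late granule-high class had 881 CPM in the control against 710, the S100a8-high class 186 against 122, the monocyte gate 205 against 158 and the protease-high class 39.6 against 31.5. Cells outside all gates had 137 against 76.8 CPM and the mast cell and basophil gate 208 against 129. The exception to the 1.2-fold difference was the MHC class II-high class, at 967 and 921 CPM. Thy1, also GPI-anchored, was at least 1.2-fold higher in 5 of these classes, all but the MHC class II-high class and the monocyte gate.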
